A study of Mus musculus with 12 samples.

Results

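The genes described here are 10 interferon-induced antiviral effectors of the mouse, chosen by symbol: *Ifit1*, *Ifit2* and *Ifit3*; *Oas1a*, *Oas2*, *Oas3*, *Oasl1* and *Oasl2*; and *Mx1* and *Mx2*. They are 10 of the 55536 genes to which the RNA-seq reads were assigned, and all 10 were found under these symbols. The samples were primary oligodendrocyte precursor cells (OPCs, labelled Sox10GFP+) from brains of pups at postnatal days 4 to 6, with several brains pooled per culture and 3 replicates per group from different litters, so that p-values measure the spread between litters. The labels name FACS for the Sox10-driven GFP or magnetic beads for CD140a as ways of isolation, and all of the cultures were grown in medium with PDGFaa and bFGF. In the study's mice, Cre driven by Sox10 switches on EGFP throughout the oligodendrocyte lineage, and the genetic background is mixed (C57BL/6j and CD1). Every sample also carries the mouse model label EAE, although the cells came from pups and were treated in culture. The Ctr group had neither agent. The EZH2i group had the EZH2 inhibitor EPZ011989 at 1.5 μM for 4 days, renewed every 48 h. The IFN-γ group had interferon-γ at 100 ng/ml for 6 h, and the last group had IFN-γ for the last 6 h of the EZH2i treatment. EZH2 is the methyltransferase that deposits the repressive histone mark H3K27me3, and the comparisons ask how these genes respond to IFN-γ, to the inhibitor, and to both.

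Type I and type II interferons act through different receptors. Type I interferons such as IFN-β bind the IFNAR receptor and act through the complex ISGF3, which includes STAT2 and IRF9 and binds the interferon-stimulated response element (ISRE). IFN-γ binds the IFNGR receptor, whose signal reaches genes through the gamma-activated site (GAS), and it induces IRF1, which can bind ISRE-like elements. The effectors described here are best known as type I targets. IFIT proteins bind viral RNA and limit its translation, OAS enzymes sense double-stranded RNA and make oligoadenylates, a second messenger of the antiviral response, and MX proteins are dynamin-like GTPases that block incoming viruses.

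The genes lie on 3 chromosomes of GRCm38. The IFIT genes were on chromosome 19, *Ifit2* at chr19:34550694-34576419, *Ifit3* at chr19:34583531-34588731 and *Ifit1* at chr19:34640871-34650009. The OAS genes were on chromosome 5, with *Oasl2* at chr5:114896936-114912234, *Oasl1* at chr5:114923240-114937915, *Oas2* at chr5:120730333-120749853, *Oas3* at chr5:120753098-120777661 and *Oas1a* at chr5:120896256-120907521. *Mx1* at chr16:97447035-97462907 and *Mx2* at chr16:97535308-97560900 were on chromosome 16. The annotation calls 9 of them protein coding and *Mx2* a polymorphic pseudogene. As background, many laboratory strains, C57BL/6 among them, carry defective alleles of *Mx1* and *Mx2*.

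The sequences just upstream of these genes are shown because the ISRE is the element for which the families are known. Of the 10 genes, 7 had a RefSeq promoter window (GRCm38.p6), and the 250 bases before the annotated start were searched on both strands for the core of the ISRE, which is GAAA followed by any 2 bases and GAAA again, and for TTCNNNGAA, the core of the GAS. The ISRE core was found upstream of 4 of the 7 genes, namely *Ifit1*, *Ifit3*, *Oas1a* and *Oas3*, against 3.46% of the 27025 genes with a window. The GAS core was found upstream of 2 of the 7, *Oas1a* and *Ifit2*, against 8.13% of all genes, and no GAS match overlapped an ISRE match. *Oas2*, *Mx1* and *Mx2* had no window. The windows of *Ifit1*, *Ifit3* and *Oas1a* show genes with the ISRE core, *Ifit2* shows the member with the highest level without IFN-γ, and *Oasl2* shows a gene with a large response and no match. They are written 5′ to 3′ on the strand of the gene, with the letters of each ISRE core in capitals (TTTC, 2 bases and TTTC where the match is on the other strand).
Ifit1, chr19:34640639-34640888, plus strand: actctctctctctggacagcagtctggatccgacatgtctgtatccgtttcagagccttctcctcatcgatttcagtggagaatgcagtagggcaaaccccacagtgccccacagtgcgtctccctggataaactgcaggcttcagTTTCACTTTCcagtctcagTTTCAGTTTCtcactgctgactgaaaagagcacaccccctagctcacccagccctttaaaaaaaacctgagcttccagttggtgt
Ifit3, chr19:34583279-34583528, plus strand: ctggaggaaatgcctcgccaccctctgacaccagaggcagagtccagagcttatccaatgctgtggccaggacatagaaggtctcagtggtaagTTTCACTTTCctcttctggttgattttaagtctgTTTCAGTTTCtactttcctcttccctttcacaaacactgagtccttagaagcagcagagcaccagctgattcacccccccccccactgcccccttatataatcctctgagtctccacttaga
Oas1a, chr5:120907526-120907775, minus strand: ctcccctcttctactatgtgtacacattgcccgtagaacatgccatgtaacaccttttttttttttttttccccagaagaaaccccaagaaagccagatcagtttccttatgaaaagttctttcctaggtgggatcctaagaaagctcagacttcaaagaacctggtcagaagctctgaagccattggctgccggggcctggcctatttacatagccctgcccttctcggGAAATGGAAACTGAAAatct
Ifit2, chr19:34550444-34550693, plus strand: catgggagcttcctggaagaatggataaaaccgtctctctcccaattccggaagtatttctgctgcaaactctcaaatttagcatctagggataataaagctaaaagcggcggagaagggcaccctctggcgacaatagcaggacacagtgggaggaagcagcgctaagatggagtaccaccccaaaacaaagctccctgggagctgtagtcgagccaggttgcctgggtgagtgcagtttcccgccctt
Oasl2, chr5:114896684-114896933, plus strand: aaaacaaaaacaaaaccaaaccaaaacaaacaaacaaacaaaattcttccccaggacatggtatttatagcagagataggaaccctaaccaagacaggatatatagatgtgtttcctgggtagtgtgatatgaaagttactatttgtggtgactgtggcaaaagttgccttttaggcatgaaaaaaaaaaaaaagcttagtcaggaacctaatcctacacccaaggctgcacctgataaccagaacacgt
In *Ifit1* the 2 cores began 104 and 85 bases before the start, and in *Ifit3* 156 and 122 bases before it. In *Oas1a* the 2 matches began 20 and 14 bases before the start and shared letters, which makes 1 run of capitals. *Ifit2* had a second window with no match of either core. A match is a description of these letters, and the absence of one says only that the letters are not in these 250 bases.

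Total counts per library ranged from 17403896 to 66546017, with a median of 33625880. Levels are given as CPM, the count scaled to library size with TMM factors, where libraries are compared, and as TPM, which also takes account of transcript length, where genes are compared. The OPC identity of the cultures was checked on 7 marker genes, all above 1 CPM on average in every group; their summed level was 8111 to 8375 CPM in Ctr and 5292 to 7130 CPM with IFN-γ. None of 8 microglial markers reached a mean of 1 CPM in any group, their sum was 0.678 to 1.09 CPM in Ctr and 1.25 to 1.74 CPM with IFN-γ, and *C1qa* was at 0 in all 12 libraries. The 5 astrocyte markers summed to 405 to 1459 CPM over the groups, with replicate 3 highest in each. The 6 mature oligodendrocyte markers summed to 1471 to 1839 CPM in Ctr and 1393 to 1611 CPM with IFN-γ, the 4 neuronal markers to 14.1 to 15.0 and 16.4 to 22.8 CPM, the 4 endothelial markers to 9.20 to 16.9 and 8.26 to 16.5 CPM, and the 5 mural cell or fibroblast markers to 0.957 to 1.82 and 2.50 to 3.78 CPM. In EZH2i the OPC markers summed to 6700 to 7100 CPM, and with both agents to 4304 to 5199 CPM. In the same order, mature oligodendrocyte markers were at 808 to 1287 and 781 to 1272 CPM. Neuronal markers were at 27.1 to 43.0 and 32.05 to 58.1 CPM. Endothelial markers were at 19.5 to 35.4 and 17.1 to 32.5 CPM. Mural cell or fibroblast markers were at 1.91 to 2.72 and 2.67 to 3.63 CPM. Microglial markers were at 1.00 to 1.29 and 1.31 to 1.64 CPM. Some of these markers also moved in IFN-γ against Ctr. Of the OPC markers *Pdgfra* and *Cspg4* fell by 1.07 and 1.16 on the log2 scale (edgeR adjusted p = 0.014 and 0.0025). The neuronal *Syt1* and *Stmn2* rose by 2.03 and 2.85 (edgeR adjusted p = 0.00061 and 0.0037), while *Rbfox3* and *Snap25* did not pass, at -0.49 and -0.10. The fibroblast marker *Lum* rose by 3.94 (edgeR adjusted p = 0.00024), while *Rgs5* and *Col1a1* of its list did not pass, at 0.37 and 0.09. With EZH2i on top of IFN-γ *Stmn2* rose by 2.54 (edgeR adjusted p = 0.032), and the other neuronal markers did not pass. The part of these other cells in the results was not tested, and in bulk RNA a different number of expressing cells cannot be told apart from a different amount of RNA per cell. In 6 of 6 genes known as IFN-γ targets (*Gbp2*, *Gbp3*, *Ciita*, *Tap1*, *Psmb9*, *Igtp*) expression rose with IFN-γ, beside 6.65% of all 18995 genes tested. The rise was from 5.78 (*Gbp3*) to 9.44 (*Igtp*) on the log2 scale, each with an SE of 0.32 or less.

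In untreated OPCs the effectors were not equally silent. *Ifit2*, which binds AU-rich RNA, and *Mx2* were the members with the highest TPM in Ctr, at 4.16 ± 2.04 and 1.13 ± 0.240 TPM (SD, n = 3), and their libraries did not overlap. *Ifit3*, which assembles with other IFIT proteins, followed at 0.560 ± 0.504 TPM and *Ifit1*, which recognises the cap of foreign RNA, at 0.177 ± 0.0706 TPM. From *Mx2* down to *Oas3* each gene overlapped the next in this order over the Ctr libraries. This sets ranges over libraries side by side, and neighbours were not compared within a library. *Ifit2* alone made up 65.9% of the summed mean TPM of the 10 genes in Ctr. *Oas1a* had 1 count in all 3 Ctr libraries together and *Oas3* had 0.

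With IFN-γ the order was different. *Ifit3* came first at 83.8 ± 12.7 TPM (SD, n = 3), or 51.8% of the summed level, above every library of the gene behind it. *Ifit1* at 28.5 ± 5.68 TPM and *Oasl2*, an OAS-like protein with ubiquitin-like domains, at 24.8 ± 2.31 TPM overlapped each other. *Ifit2* was next at 15.1 ± 4.19 TPM and then *Mx2* at 5.12 ± 1.87 TPM, each clear of its neighbours. The remaining OAS genes and *Mx1* were at 1.79 TPM or less, with *Oas3* lowest at 0.0230 ± 0.0137 TPM. The summed TPM of the 10 genes was 3.82, 5.74 and 9.37 in Ctr, 5.65, 6.30 and 7.83 in EZH2i, 165, 148 and 171 with IFN-γ, and 139, 134 and 159 with IFN-γ and EZH2i. Both groups with IFN-γ lay apart from both groups without it. The 10 genes stood in the same order in the group with both agents, where *Ifit3* made up 52.8%.

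**Figure D1:**
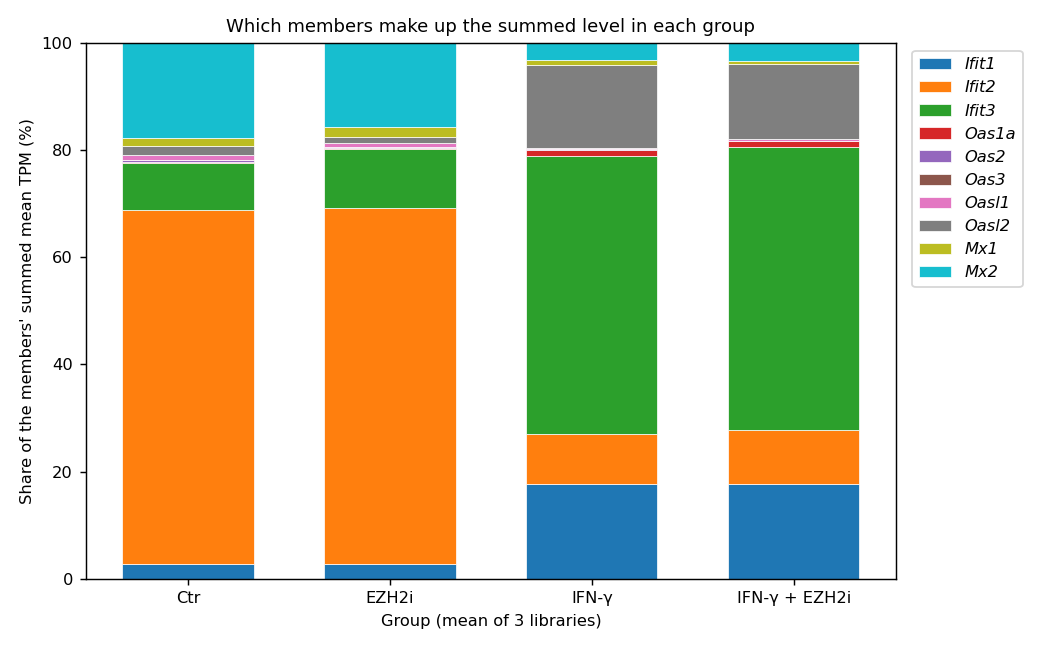
Stacked bars of the share (%) that each of the 10 genes has of their summed mean TPM in the 4 groups (mean of 3 libraries each). *Ifit2* holds 65.9% in Ctr and 66.5% in EZH2i, and *Ifit3* holds 51.8% with IFN-γ and 52.8% with IFN-γ and EZH2i.

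The first comparison asked what 6 h of IFN-γ does to these genes in OPCs without the inhibitor. Of the 10 genes, 9 had enough counts for edgeR's filter, and all 9 rose, beside 6.65% of all 18995 genes tested that rose. The libraries of the IFN-γ group lay above those of Ctr without overlap for each of the 9, as for 13.5% of all genes. Of the 9, 5 (*Oas1a*, *Oas2*, *Oasl1*, *Oasl2* and *Mx1*) passed the filter only through the libraries with IFN-γ and so had to be higher there, which is why the count is not read as support for the group as a whole. The other 4 passed in libraries without IFN-γ too. The median log2 fold change of the 9 was 4.23, and that of all genes was 0.0010. The same 5 genes enter this median, so it is not read as support either. *Oas3* was not tested in this fit.

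Among the IFIT genes, *Ifit1* had 0.461, 0.734 and 0.696 CPM in Ctr and 118, 80.8 and 79.6 CPM with IFN-γ. *Ifit3* had 1.13, 0.395 and 2.19 CPM in Ctr and 176, 131 and 209 CPM with IFN-γ. The groups lay far apart: the lowest IFN-γ library was 108 times the highest Ctr library for *Ifit1* and 59.8 times for *Ifit3*. The rise was 7.19 ± 0.25 (SE) on the log2 scale for *Ifit1*, or 146-fold with a 95% interval of 101 to 212 (edgeR adjusted p = 1.5e-09), and 6.95 ± 0.53, or 124-fold with an interval of 55.9 to 275, for *Ifit3* (edgeR adjusted p = 2.4e-06). Without Ctr replicate 3, the library with the most *Ifit3* in its group, the *Ifit3* fold was 210. *Ifit2* stood apart from them. Its level was 14.5, 18.2 and 25.5 CPM in Ctr and 56.7, 57.5 and 95.8 CPM with IFN-γ, a rise of 1.84 ± 0.30 on the log2 scale or 3.59-fold (interval 2.28 to 5.67, edgeR adjusted p = 0.0017). It had the smallest fold of the 9 genes and the highest Ctr level.

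In the OAS family, *Oas1a*, an enzyme that makes oligoadenylates, gave 0, 0 and 1 count in Ctr and 120, 119 and 312 counts with IFN-γ. The ratio of its summed counts, scaled to the summed depth, was 437, with a counting interval of 78.1 to 17293, and the fitted change of 8.32 ± 0.61 on the log2 scale (edgeR adjusted p = 1.7e-06) rests on that 1 count: without Ctr replicate 3 it was 10.21. *Oasl2* was at 0.142, 0.113 and 0.356 CPM in Ctr and 66.9, 45.7 and 64.9 CPM with IFN-γ. It rose by 7.91 ± 0.40 on the log2 scale, 241-fold (interval 132 to 439, edgeR adjusted p = 5.1e-08), and 443-fold without Ctr replicate 3. These 2 genes had the largest fitted folds of the 9, although their TPM with IFN-γ differed from 1.79 for *Oas1a* to 24.8 for *Oasl2*.

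The other OAS genes stayed near the limit of detection. *Oas2*, an oligoadenylate synthetase with a duplicated domain, had 0, 0.113 and 0.119 CPM in Ctr and 1.74, 0.666 and 1.47 CPM with IFN-γ. It rose by 3.93 ± 0.69 on the log2 scale, or 15.3-fold (edgeR adjusted p = 0.0028), 26.5-fold without Ctr replicate 3, and 9.38-fold with length-scaled TPM in place of counts. *Oasl1*, which has been described as a translational inhibitor of *Irf7*, was at 0.0709, 0.113 and 0.119 CPM in Ctr and 1.71, 0.533 and 0.355 CPM with IFN-γ. IFN-γ replicate 1 was highest by a wide margin, and the change was 8.00-fold (interval 2.65 to 24.1, edgeR adjusted p = 0.023). This call was the least stable. Leaving out Ctr replicate 1, Ctr replicate 2 or Ctr replicate 3 ended it, with an edgeR adjusted p of 0.091, 0.076 and 0.082, as did leaving out IFN-γ replicate 1, with an edgeR adjusted p of 0.084 and a fold of 4.19. It was also lost in a fit of the 6 libraries compared (edgeR adjusted p = 0.055) and with length-scaled TPM in place of counts (edgeR adjusted p = 0.10). *Oas3*, which has a tripled domain, had 0 counts in the 3 Ctr libraries and 7, 2 and 9 counts with IFN-γ. On the summed counts it was at least 4.76-fold higher, taking 3 counts over the group as the limit that 0 allows. Without the filter on low counts the adjusted p of *Oas3* was 0.043 by edgeR and 0.042 by DESeq2.

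*Mx1* was at 0.213, 0.395 and 0.119 CPM in Ctr and 6.13, 4.61 and 1.60 CPM with IFN-γ. It rose by 4.23 ± 0.55 on the log2 scale, 18.8-fold (interval 8.22 to 43.1, edgeR adjusted p = 0.00027), and IFN-γ replicate 3 was well below the other two. *Mx2* was at 2.77, 2.60 and 2.58 CPM in Ctr and 12.3, 15.2 and 9.78 CPM with IFN-γ. Its rise of 2.23 ± 0.25 on the log2 scale was 4.69-fold (interval 3.20 to 6.89, edgeR adjusted p = 9.7e-05). The 2 members with the highest level in Ctr, *Ifit2* and *Mx2*, thus had the 2 smallest folds.

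**Figure D2:**
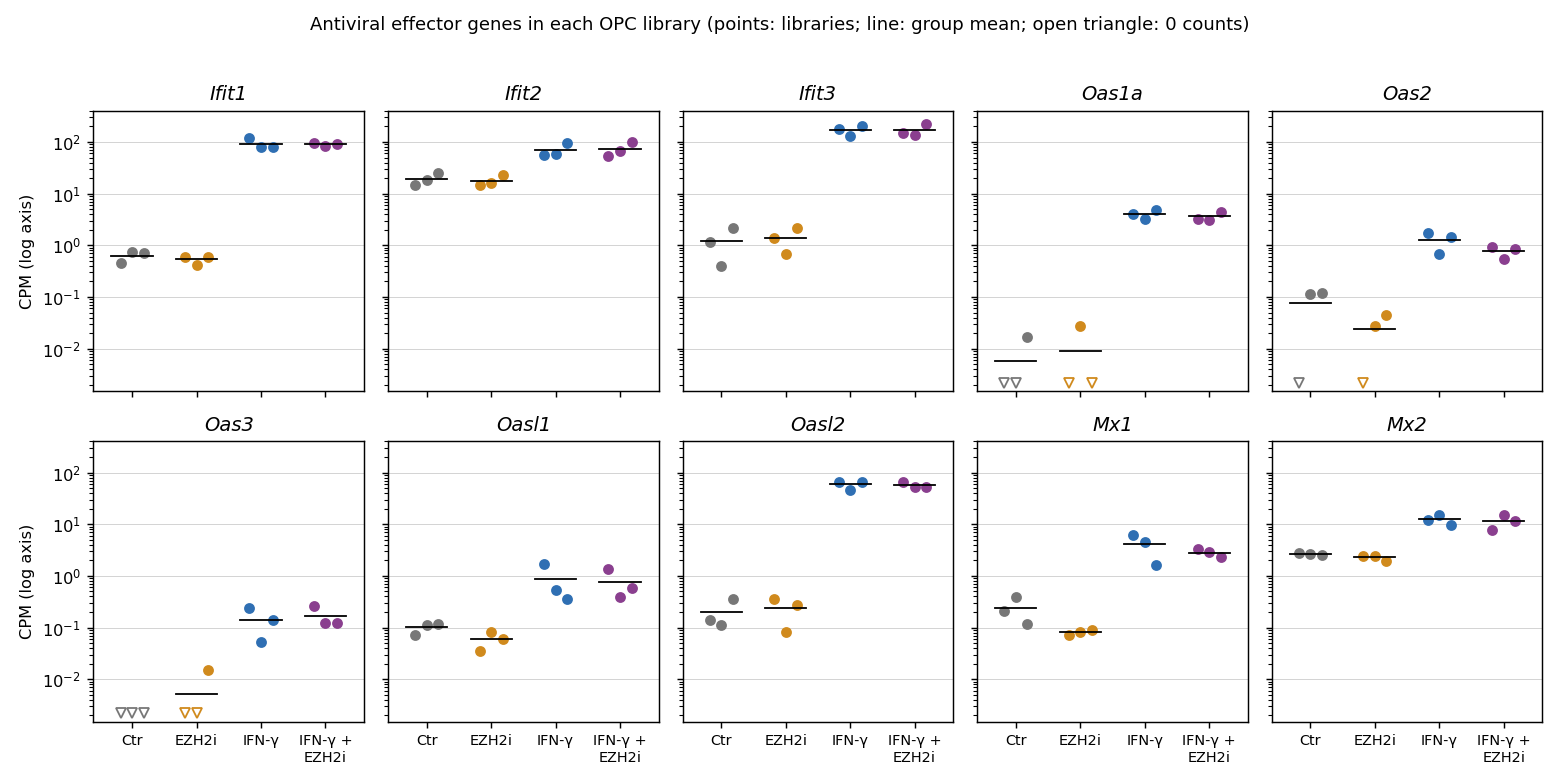
Level of the 10 genes in each of the 12 libraries, in CPM on a log axis, with a point for each library, a line for the mean of the 3 libraries of a group and an open triangle for a library with 0 counts. The libraries with IFN-γ lie above those without it for each gene, while the libraries of IFN-γ and of IFN-γ with EZH2i overlap for each gene, as do those of Ctr and EZH2i other than for *Mx1* and *Mx2*.

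The transcripts to which Salmon assigned the reads bear on what the *Mx1* signal is. *Mx1*-201, the 15-exon protein-coding transcript, had 0 counts in all 12 libraries. With IFN-γ, 61.8% ± 9.6 (SD, n = 3) of the *Mx1* counts went to *Mx1*-205, annotated as a target of nonsense-mediated decay, and 21.8% ± 16.0 to the 9-exon coding transcript *Mx1*-202. With both agents the shares were 55.1% and 38.4%. *Oasl2* was split between the coding transcript *Oasl2*-201 (39.5% with IFN-γ) and *Oasl2*-205, another annotated decay target (48.2%). Of *Mx2*, 86.2% was assigned to *Mx2*-202, annotated as a polymorphic pseudogene transcript. The few *Oas2* counts in Ctr and EZH2i were all assigned to *Oas2*-204, annotated as a retained intron, whereas with IFN-γ 94.3% went to the coding transcript *Oas2*-201, so the fold of *Oas2* sets different transcripts against each other. *Ifit1*, *Ifit3* and *Oas1a* have 1 annotated transcript each. For *Oasl1* the assignment moved from 96.2% on *Oasl1*-202 with IFN-γ to 0 with both agents, where *Oasl1*-201 took 89.6%; these transcripts largely share their sequence, so the division between them is uncertain.

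Near-identical copies make some assignments uncertain at the gene level too. Of the 31-base stretches in *Ifit3* transcripts, 61.8% also occur in *Ifit3b*, and of those in *Oas1a*, 68.7% also occur in *Oas1g*. *Ifit3b* held 16.8% ± 1.2 of the counts of the *Ifit3* pair with IFN-γ and 40.9% ± 8.9 in Ctr (SD, n = 3). With the copies summed, the IFN-γ effect was 6.60 for *Ifit3* and 8.61 for *Oas1a* on the log2 scale. *Mx1* and *Mx2* share 8.12% and 7.96% of their stretches with other genes, mostly with each other, and *Ifit2* and *Oas2* share none.

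The paralogs were read in the same way. Of the 10 other IFIT and OAS genes, 6 could be tested and these 6 rose with IFN-γ, in both comparisons, beside the 6.65% and 5.9% of all genes that rose. Of the 6, 5 (all but *Ifit3b*) passed the filter only through libraries with IFN-γ and so had to be higher there, and nothing is read from the count. *Ifit3b* rose by 5.47 ± 0.42, *Ifit1bl1* by 2.55 ± 0.41, *Ifit1bl2* by 3.29 ± 0.58 and *Oas1c* by 2.31 ± 0.52 on the log2 scale. *Oas1b*, whose functional allele confers resistance to flaviviruses and which is annotated as a polymorphic pseudogene here, had 0, 0 and 6 counts in Ctr and was at 5.90 ± 0.147 CPM with IFN-γ (SD, n = 3). *Oas1g* had 0 counts in Ctr and 120 with IFN-γ over 3 libraries, at least 31.7-fold higher. The *Oas1c* call in cells without EZH2i was lost without Ctr replicate 2, Ctr replicate 3 or IFN-γ replicate 3 (edgeR adjusted p = 0.062, 0.083 and 0.066), and the call in cells with it was lost without replicate 3 of either group (edgeR adjusted p = 0.050 and 0.051). *Oas1d* had 0 counts in all libraries. *Oas1e*, *Oas1f* and *Oas1h* had 3 counts or fewer in each group.

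The second comparison asked for the effect of IFN-γ in cells already treated with EZH2i. All of the 9 testable members rose again, beside 5.9% of all genes, and 9 of 9 did not overlap, as for 11.8% of all genes; the same 5 passed the filter only through IFN-γ libraries. *Ifit1* was at 0.608, 0.411 and 0.592 CPM in EZH2i and 93.7, 84.2 and 91.6 CPM with both agents, a rise of 7.37 ± 0.24 on the log2 scale (edgeR adjusted p = 1.1e-09). *Ifit3* went from 1.39, 0.685 and 2.16 CPM to 151, 136 and 224 CPM, a rise of 6.87 ± 0.52. Both folds, 166 and 117, were close to those without the inhibitor. *Ifit2*, at 14.5, 16.4 and 22.5 CPM in EZH2i and 53.2, 67.5 and 99.5 CPM with both, rose by 2.04 ± 0.30 and was again the smallest.

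*Oasl2* was at 0.357, 0.0822 and 0.273 CPM in EZH2i and 64.8, 52.0 and 52.4 CPM with both agents, a rise of 7.88 ± 0.39 on the log2 scale. *Oas1a* gave 0, 1 and 0 counts and then 77, 104 and 177, a ratio of 483 with a counting interval of 86.2 to 19142, and its fitted change of 8.36 moved to 10.14 without EZH2i replicate 2 and to 7.59 without EZH2i replicate 3. *Oas2* was at 0, 0.0274 and 0.0455 CPM in EZH2i and 0.940, 0.547 and 0.845 CPM with both. It rose by 4.57 ± 0.77, by 5.37 without EZH2i replicate 3, and by 3.80 with length-scaled TPM. *Oasl1*, at 0.0357, 0.0822 and 0.0607 CPM and then 1.37, 0.395 and 0.571 CPM, changed by 3.57 ± 0.76 (edgeR adjusted p = 0.010). Replicate 1 was again its highest library, and the fold of 11.9 was 7.53 without it. The *Oasl1* call was lost without EZH2i replicate 3 (edgeR adjusted p = 0.056) and with length-scaled TPM (edgeR adjusted p = 0.054).

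*Mx1* rose by 5.03 ± 0.59, from 0.0715, 0.0822 and 0.0911 CPM to 3.29, 2.92 and 2.29 CPM, which is 32.6-fold by counts and 8.08-fold by length-scaled TPM. The latter divides each count by the effective length of its transcript before the sum over the gene. *Mx2* rose by 2.31 ± 0.25, from 2.47, 2.47 and 1.96 CPM to 7.78, 14.8 and 11.5 CPM. *Oas3* had 0, 0 and 1 count in EZH2i and 6, 4 and 5 counts with both agents, a ratio of 20.3 with a counting interval of 3.12 to 852. Without the filter its adjusted p was 0.070 by edgeR and 0.068 by DESeq2, which misses the threshold that it passed in cells without the inhibitor; the difference between the 2 responses of *Oas3* was -1.49 ± 1.47 (SE) on the log2 scale in that edgeR fit, with an adjusted p of 1.00.

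**Figure D3:**
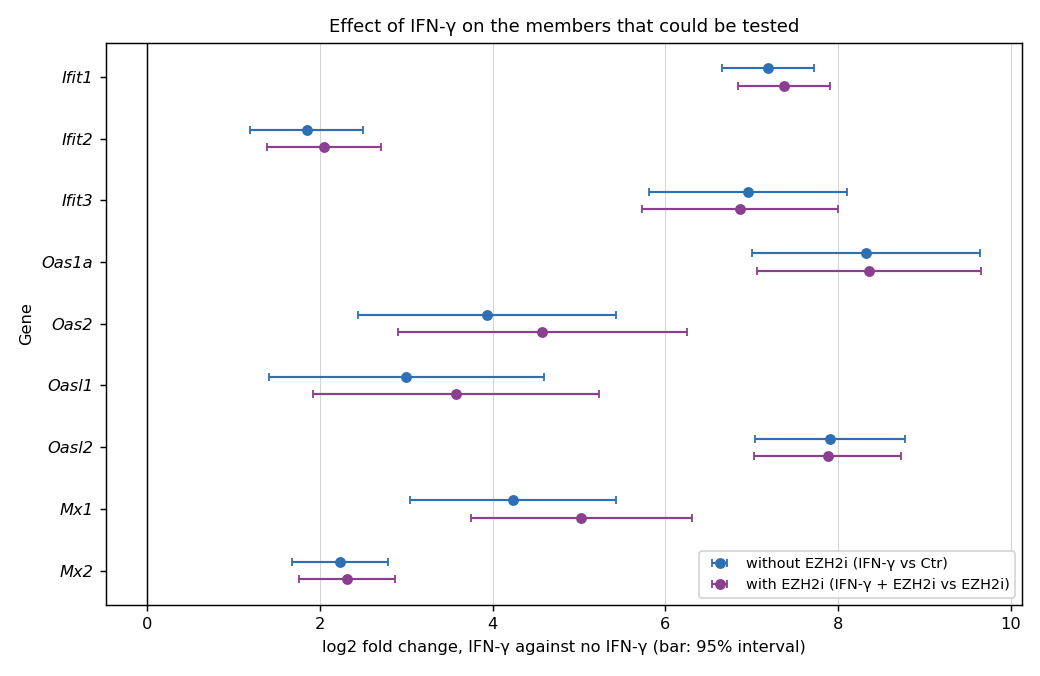
Fitted log2 fold change of 9 genes with IFN-γ, without EZH2i (IFN-γ against Ctr) and with it (IFN-γ with EZH2i against EZH2i), with 95% intervals from edgeR; *Oas3* was not in the fit. Every interval lies above 0, and for each gene the intervals of the 2 comparisons overlap, from 1.84 and 2.04 for *Ifit2* to 8.32 and 8.36 for *Oas1a*.

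Whether the response to IFN-γ differed with the inhibitor was tested as an interaction in the same fit. None of the 9 genes passed or had an unadjusted p under 0.05, and none of all genes passed (0% called) by edgeR, by edgeR with the replicate block (18995 genes each) or by DESeq2 (31982 genes), while 127 genes had an unadjusted edgeR p under 0.05. The difference of the responses for *Ifit1* was 0.18 on the log2 scale, with a 95% interval of -0.50 to 0.86. For *Ifit2* it was 0.20 (-0.71 to 1.10), for *Ifit3* -0.09 (-1.44 to 1.27) and for *Oasl2* -0.03 (-1.31 to 1.25). As a ratio of the 2 folds, the interval for *Ifit1* runs from 0.707 to 1.82, and it is wider for the genes with few counts. *Mx1* had the largest estimate, 0.79 (-0.92 to 2.51), which turned to -1.08 with length-scaled TPM, and *Oas2* followed at 0.64 (-1.57 to 2.85).

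The inhibitor alone called none of the 9 genes in either direction (edgeR, smallest adjusted p = 0.80 for *Mx1*), beside 0.405% of all genes that were called higher and 0% lower. DESeq2 (1.38% of all genes called higher and 0.0659% lower) and the fit with the replicate block (3.46% and 0.6%) called none of them either, and 0 of the 9 had an unadjusted edgeR p under 0.05. The estimates were below 0 for 8 of the 9, with a median of -0.21, against 0.0060 for all genes. Every interval of the 9 included 0 and the genes share the same libraries, so nothing is read from this count. For *Mx1* the libraries of EZH2i (0.0715 to 0.0911 CPM) and Ctr (0.119 to 0.395 CPM) did not overlap, which was so for 5.34% of all genes in this direction and 7.37% in the other, and the change was -1.33 (interval -2.80 to 0.14) on 20 counts in Ctr and 11 in EZH2i, turning to 0.26 with length-scaled TPM. *Mx2* did not overlap either, with a change of -0.21 (-0.76 to 0.34). *Ifit1* differed by -0.22 (-0.79 to 0.34), *Ifit2* by -0.13 (-0.77 to 0.51) and *Ifit3* by 0.08 (-0.98 to 1.13). *Oas1a*, *Oas2* and *Oasl1* had 11 counts or fewer in either group, and their intervals were wide, from -2.56 to 2.19, from -3.43 to 0.68 and from -2.67 to 1.22.

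Adding the inhibitor to IFN-γ also called none of the 9 genes (edgeR, smallest adjusted p = 1.00), beside 0.347% of all genes called higher and 0.00526% called lower. This was so by DESeq2 (1.08% of all genes called higher and 0.0936% lower) and with the replicate block (3.11% and 0.827%) too, and 0 of the 9 had an unadjusted edgeR p under 0.05. Here the counts are high enough for narrower intervals. *Ifit1* differed by -0.04 on the log2 scale (-0.42 to 0.34), *Oasl2* by -0.07 (-0.65 to 0.51), *Mx2* by -0.13 (-0.65 to 0.39) and *Oas1a* by -0.15 (-0.87 to 0.57). *Ifit2* was the gene with an estimate above 0, at 0.07 (-0.56 to 0.70). *Oas2* at -0.73 (-1.91 to 0.44) and *Mx1* at -0.53 (-1.49 to 0.42) had the lowest estimates, and the libraries overlapped for all 9, while 6.08% of all genes were higher and 4.26% lower without overlap. Ctr and IFN-γ libraries serve in several of these comparisons, so the estimates are not independent of each other.

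**Figure D4:**
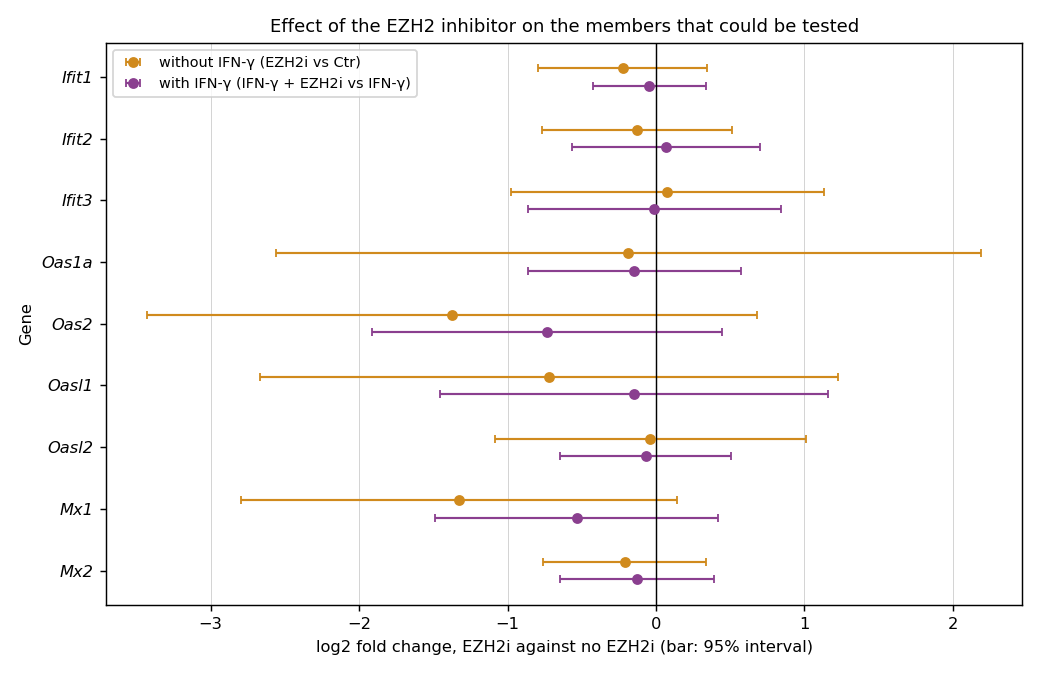
Fitted log2 fold change of 9 genes with EZH2i, without IFN-γ (EZH2i against Ctr) and with it (IFN-γ with EZH2i against IFN-γ), with 95% intervals from edgeR. Every interval includes 0; those of *Oas1a* and *Oas2* without IFN-γ are the widest, from -2.56 to 2.19 and from -3.43 to 0.68.

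Other genes of the pathway, upstream and downstream, were then read from lists that hold 61 genes, of which 43 could be tested. Of these 43, 20 were other interferon-stimulated genes, 6 were IFN-γ targets and 9 were receptor and signaling genes. With IFN-γ 35 of the 43 rose in OPCs without EZH2i, with a median log2 fold change of 4.36, beside 6.65% of all genes. The median of the 9 receptor and signaling genes alone was 1.08 in this comparison. In OPCs with EZH2i 35 rose, with a median of 4.55, beside 5.9% of all genes. Of the 43, 5 passed the filter only through libraries with IFN-γ and so had to be higher there. The counts and medians are therefore not read as support for the lists as a whole. By edgeR and by DESeq2 0 of the 43 were called lower. Of the 18 interferon genes, from *Ifnb1* to the *Ifna* genes, none had enough counts to be tested and 10 had 0 counts in every library. *Ifnb1*, the type I interferon that many cells make first, had 2 counts in IFN-γ replicate 1 and 0 in the other 11 libraries. *Ifna13* and *Ifnz* had the most, with 11 counts or fewer in any group.

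Of the 9 receptor and signaling genes, 5 rose and 4 did not pass in either comparison, beside 6.65% and 5.9% of all genes that rose. The type I receptor subunit *Ifnar1* was at 79.3 ± 2.97 CPM in Ctr and 73.2 ± 6.66 CPM with IFN-γ (SD, n = 3), a change of -0.12 ± 0.12 that did not pass, while the other subunit, *Ifnar2*, rose by 1.08 ± 0.14 on the log2 scale. In ISGF3, *Stat2* rose from 14.1 ± 1.72 to 210 ± 19.3 CPM (log2 change 3.90 ± 0.15) and *Irf9* from 10.0 ± 0.620 to 131 ± 22.3 CPM (3.71 ± 0.15). *Ifngr2*, a subunit of the IFN-γ receptor, was the lowest of the list at -0.42 ± 0.23 (edgeR adjusted p = 0.37). With the replicate block it passed as lower in both comparisons (edgeR adjusted p = 0.018 and 0.013).

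The transcription factor *Irf1* rose by 6.31 ± 0.16 on the log2 scale, from 11.98 ± 0.410 to 951 ± 116 CPM, and *Irf7*, which amplifies type I responses, by 3.14 ± 0.27. *Irf3*, which virus sensors activate, differed by -0.18 ± 0.17 and did not pass. All 3 feedback genes rose, beside 6.65% of all genes, from *Socs3* at 2.26 ± 0.24 to *Socs1* at 6.77 ± 0.29. *Usp18*, which restrains signaling from IFNAR and removes ISG15 from proteins, rose by 6.03 ± 0.40. *Pde12*, which degrades oligoadenylates, at 0.12 ± 0.12 and *Abce1*, which recycles ribosomes, at 0.07 ± 0.12 did not pass.

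Among 20 other interferon-stimulated genes 19 rose, from 2.11 (*Dhx58*) to 8.70 (*Parp14*) on the log2 scale, beside 6.65% of all genes that rose. Of the 20, 5 (*Isg15*, *Ifi44*, *Zbp1*, *Xaf1* and *Trim30a*) could be tested only through libraries with IFN-γ and had to be higher there, and *Trim30a* was lost with length-scaled TPM (edgeR adjusted p = 0.11). *Isg15*, a ubiquitin-like modifier, rose by 8.11 ± 0.35, from 6 counts over the Ctr libraries to 16.4 ± 3.02 CPM. *Isg20*, a nuclease, had a change of 1.07 ± 0.48 that did not pass (edgeR adjusted p = 0.26), and with the replicate block it passed in both comparisons (edgeR adjusted p = 0.018 and 0.024). The log2 fold changes of the effectors ran from 1.84 to 8.32. None of the 43 genes was called with EZH2i by edgeR in either comparison, where 3 (EZH2i against Ctr) and 1 (with IFN-γ) had an unadjusted p under 0.05. *Tap1*, a gene of the MHC class I pathway, came closest in EZH2i against Ctr at 1.10 ± 0.22 (edgeR adjusted p = 0.060). It passed by DESeq2 and without the filter (adjusted p = 0.00095 and 0.018), with the replicate block (edgeR adjusted p = 0.0014), and without EZH2i replicate 3 (edgeR adjusted p = 0.0073). *Gbp2*, an IFN-γ induced GTPase, came closest in the comparison with IFN-γ at 0.53 ± 0.15 (edgeR adjusted p = 0.26) and passed by DESeq2 and with the replicate block (adjusted p = 0.012 and 0.027).

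**Figure D5:**
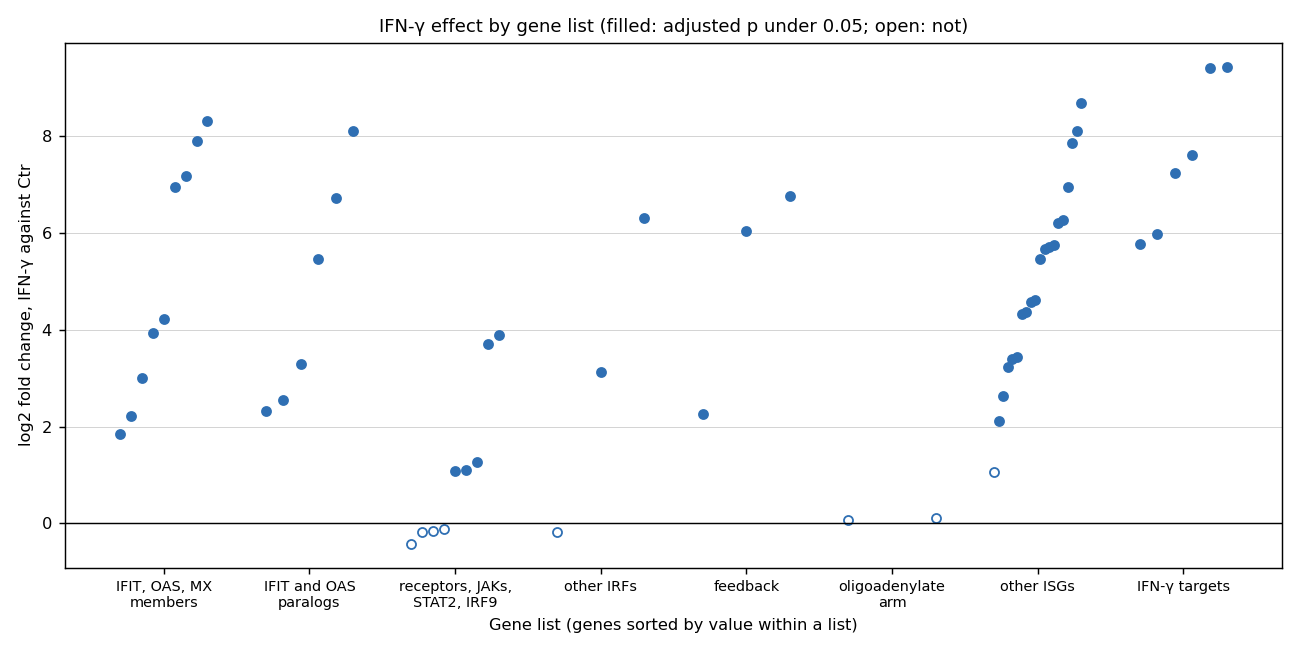
Fitted log2 fold change with IFN-γ against Ctr for the genes of each list that could be tested, sorted within the list, filled where the edgeR adjusted p was under 0.05. All points of the members and of their paralogs are filled, with members from 1.84 to 8.32; the open points are 4 receptor and signaling genes, *Irf3*, *Pde12*, *Abce1* and *Isg20*.

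As a description of how the effectors varied within groups, the deviations of their log2 CPM from the group means were averaged over the 9 genes and compared with those of 14674 other genes over the 12 libraries. The most alike were *Cpeb2* (Pearson r = 0.974), *Echdc2* (0.907), *Mtmr10* (0.890), *Agfg1* (0.889) and *Tmem255a* (0.887). These points share their library, depth and litter, and they are the highest of many correlations. *Ifit2* was highest in replicate 3 in each of the 4 groups, at 25.5, 22.5, 95.8 and 99.5 CPM, as was the astrocyte marker sum, whose part in these levels was not tested. *Ifit3* was also highest in replicate 3 in each group, whereas *Mx1* was lowest in replicate 3 in Ctr, IFN-γ and IFN-γ with EZH2i.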

How the data were processed

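Total RNA of OPCs was sequenced in paired ends after a stranded library preparation with removal of rRNA. The authors quantified the reads with Salmon (0.8.2 in the submitters' processing notes, which also name STAR, DESeq2 and the builds mm10 and GRCm38) and deposited, for each transcript, an estimated count of read pairs and a TPM value, which is that count divided by the deposited effective length of the transcript and scaled to a constant sum per library. The settings of Salmon were not given in the sources used here, so its use of strand is unknown. Tables with the fold changes and p-values of the authors' own DESeq2 comparisons were not used.

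Every transcript was found in GENCODE's GRCm38 annotation, and both units were summed over the transcripts of a gene (55536 genes), the counts then being rounded. In R 4.3.3, the quasi-likelihood test of edgeR 4.0.16 was fitted to the 12 libraries by group, with no other covariate, after TMM scaling and the package's filter on low counts, which kept 18995 genes. P-values were adjusted over all genes tested by Benjamini-Hochberg, with a threshold of 0.05. An SE is the log2 fold change divided by the square root of F. The 95% intervals use edgeR's total degrees of freedom, 11.8 for the members tested. These add to the residual ones those from the spread shared over genes. Counting intervals of ratios are exact, and they and the floor of 3 counts cover counting error only. The fits were tested on simulated counts. The members, pathway lists and markers were chosen with earlier results of these data known. The genes named are all members and paralogs with counts, 9 fixed pathway genes, the largest and smallest change of each other list, and the 5 genes most like the members. The other genes, from *Gbp2*, *Tap1*, *Irf3*, *Pde12* and *Dhx58* to *Ciita*, *Psmb9*, *Ifna13*, *Ifnz*, *Oas1d*, *Ifi44*, *Zbp1*, *Xaf1*, *Trim30a* and the markers of cell types, were chosen later, with their values in view. Of the pathway lists, 2 genes are not reported here.

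The alternatives were scaling by RLE, a test by DESeq2 1.42.0, tests without a filter and with a minimum of 10 counts in each library, a block for replicate number, TPM scaled by length in place of counts, removal of mitochondrial and rRNA genes, separate fits of the libraries compared, summing of near-identical copies, and leaving out 1 library at a time. Most libraries with the same replicate number deviated from their group means together. The correlations were 0.627, 0.105 and 0.652 for IFN-γ against Ctr, and 0.605, 0.633 and 0.686 for IFN-γ with EZH2i against EZH2i. They were 0.741, 0.638 and 0.748 for IFN-γ with EZH2i against IFN-γ, and 0.583, 0.0929 and 0.608 for EZH2i against Ctr. A limit of 0.1 would pair all of these groups except EZH2i and Ctr, a pairing that the others imply. The limit thus does not decide whether the numbers pair the libraries. The main fit took no account of pairing, and the replicate block gives the results with it. Promoter windows are those of RefSeq.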

Additional observations from a re-analysis of the deposited data

How the results depend on the processing

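The 9 members called with IFN-γ were called in the same direction by DESeq2, with RLE factors, without the filter, with the replicate block, without mitochondrial and rRNA genes and with the copies summed, in both comparisons. With length-scaled TPM 8 were, *Oasl1* being lost. With at least 10 counts required in every library 3 members could be tested and 3 were called in each. With 1 library left out, 8 to 9 were called in each, and the one lost was *Oasl1*, which was also lost in the fit of the 6 libraries of IFN-γ against Ctr. No member was called with EZH2i or in the interaction under any of the alternatives. The replicate block changed no call of a member. Of the pathway genes it called 1 lower (*Ifngr2*) in each IFN-γ comparison, and 1 higher with EZH2i (*Tap1*) and 1 with EZH2i on top of IFN-γ (*Gbp2*), each against 0 without the block. With length-scaled TPM 34 of the 35 pathway genes higher with IFN-γ against Ctr were called, *Trim30a* being lost. DESeq2 called 1 and 1 in the last 2 comparisons, and the fit without a filter 1 in EZH2i against Ctr, where leaving out a library gave 0 to 1 (1 without EZH2i replicate 3). By CPM per kilobase in place of TPM, 8 of 10 genes kept their place in the order of levels in Ctr and 8 in EZH2i, *Mx1* and *Oasl2* changing places.

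Estimates that did not pass changed sign with single libraries left out, over these log2 ranges. In EZH2i against Ctr they were -0.34 to 0.13 for *Ifit2*, -0.44 to 0.83 for *Ifit3*, -1.96 to 1.72 for *Oas1a* and -0.30 to 0.84 for *Oasl2*. In IFN-γ with EZH2i against IFN-γ they were -0.14 to 0.16 for *Ifit1*, -0.22 to 0.36 for *Ifit2*, -0.26 to 0.15 for *Ifit3*, -0.32 to 0.011 for *Oas1a*, -0.80 to 0.79 for *Oasl1*, -0.23 to 0.025 for *Oasl2* and -0.36 to 0.079 for *Mx2*. In the interaction they were -0.094 to 0.49 for *Ifit2*, -0.84 to 0.43 for *Ifit3*, -1.87 to 1.81 for *Oas1a*, -0.16 to 1.44 for *Oas2*, -0.082 to 1.51 for *Oasl1*, -0.91 to 0.23 for *Oasl2* and -0.15 to 0.29 for *Mx2*. With *Oas1g* added, *Oas1a* was at 0.56 in EZH2i against Ctr and -0.79 in the interaction. With length-scaled TPM, *Mx1* was at 0.26 in EZH2i against Ctr, *Oasl1* at 0.060 and *Mx2* at 0.073 in IFN-γ with EZH2i against IFN-γ, and *Oasl2* at 0.70 and *Mx1* at -1.08 in the interaction. The cause of these shifts was not tested. Depth limits what can be said of *Oas1a*, *Oas2*, *Oas3*, *Oasl1* and *Mx1* without IFN-γ, where each library held 7 counts or fewer of each.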
